A study of Mus musculus with 12 samples.

Results

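Cxcl1, Cxcl2, Cxcl3, Cxcl5 and Cxcr2, the genes of neutrophil-attracting chemokines and of the receptor they share, were taken by gene symbol from a table of single-cell counts. They make up 5 of 27457 gene rows. The table held 93126 cells from 48 tumors of the MC38 colon carcinoma line, a C57BL/6J-derived line that was injected subcutaneously into female mice aged 8 to 12 weeks. Hosts were C57BL/6J mice (B6) or F1 offspring of C57BL/6J and 1 of 7 Collaborative Cross strains, inbred lines that carry mixed founder genomes (CC001/UncJ, CC002/UncJ, CC007/UncJ, CC036/UncJ, CC075/UncJ, CC079/TauUncJ and CC080/TauUncJ). Each host received a single intraperitoneal dose of 200 µg of isotype control or of antibody against PD-1 (aPD1) when its tumor measured 75 to 110 mm3. Tumors were taken 48 hours later and frozen, and cells were sorted to 90% CD45+ (immune) and 10% CD45- cells.

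Each of 12 libraries, here called pools, held 4 hashtagged tumors, an isotype and an aPD1 tumor from each of 2 host strains, so the replicate was the tumor. CC001, CC002 and CC075 hosts were classed as responders by the study and CC036, CC079 and CC080 hosts as non-responders, from tumor growth in other animals. The labels name only the strain, and B6 and CC007 hosts belonged to no class. This gave 10 responder tumors with each antibody, 9 non-responder tumors with each antibody and 10 tumors of unclassed hosts. Of the 4 hashtags, 0 labelled tumors of both antibodies, so hashtag and treatment cannot be told apart. Tumors held 53 to 3082 cells and 88816 to 17713491 unique molecular identifiers (UMIs, each counting 1 captured transcript), and 4990 of 87940 barcodes occurred in more than 1 pool.

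CXC chemokines with a glutamate-leucine-arginine motif before their cysteines, among them CXCL1, CXCL2, CXCL3 and CXCL5, bind the G protein-coupled receptor CXCR2. CXCR2 is carried by neutrophils, which follow these ligands out of the bone marrow and into inflamed tissue. In tumors the ligands are made by macrophages, fibroblasts, endothelium and carcinoma cells in response to IL-1, TNF and Toll-like receptor signals through NF-κB, and their mRNAs are short-lived.

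The 4 ligand genes lie on the forward strand of mouse chromosome 5 (GRCm38, GENCODE vM21), within 146579 bases that also hold the ligand gene Ppbp and the platelet factor gene Pf4. In order they are Cxcl5 (chr5:90759360-90761624), Cxcl3 (chr5:90786103-90789600), Cxcl1 (chr5:90891241-90893115) and Cxcl2 (chr5:90903871-90905938). Cxcr2 lies apart, on the forward strand of chromosome 1 (chr1:74153989-74161246). RefSeq promoter sequence was at hand for 4 of the 5 genes, all but Cxcl5. The 250 bases before the RefSeq start of the 3 ligands that gave most counts (GRCm38.p6, forward strand, 5′ to 3′) are printed because the same short letters recur in them close to the start. Capitals mark GGAATTTCC, a κB-type motif of the kind NF-κB binds, and ATAAAAGG, an A-rich run. Both runs of letters were chosen after the 3 sequences had been read, and both strands were searched.
Cxcl1 promoter, chr5:90890995-90891244: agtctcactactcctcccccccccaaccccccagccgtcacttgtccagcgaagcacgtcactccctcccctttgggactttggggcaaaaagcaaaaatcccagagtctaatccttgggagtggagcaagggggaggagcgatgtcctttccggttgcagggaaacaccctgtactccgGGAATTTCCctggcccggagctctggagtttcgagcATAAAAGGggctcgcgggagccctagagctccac
Cxcl2 promoter, chr5:90903649-90903898: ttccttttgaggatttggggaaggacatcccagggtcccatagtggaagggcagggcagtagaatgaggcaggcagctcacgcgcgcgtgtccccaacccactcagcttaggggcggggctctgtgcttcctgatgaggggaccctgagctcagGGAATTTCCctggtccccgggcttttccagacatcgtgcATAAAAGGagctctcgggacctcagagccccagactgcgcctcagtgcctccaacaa
Cxcl3 promoter, chr5:90785851-90786100: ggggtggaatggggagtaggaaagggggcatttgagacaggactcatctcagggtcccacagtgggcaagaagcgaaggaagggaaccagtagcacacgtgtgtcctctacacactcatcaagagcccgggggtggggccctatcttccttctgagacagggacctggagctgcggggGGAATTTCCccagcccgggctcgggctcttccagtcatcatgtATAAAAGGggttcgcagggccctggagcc

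Counted to the last base of each printed window, the κB-type letters ended 61 bases before it in Cxcl1, 87 in Cxcl2 and 63 in Cxcl3. The A-rich letters ended 26, 49 and 21 bases before it. The windows follow the RefSeq starts, and for Cxcl1 and Cxcl2 they run past the GENCODE starts given above, to base 90891244 and base 90903898. GGAATTTCC occurred in 94 of 32851 promoter windows of this length (0.286%) and ATAAAAGG in 507 (1.54%). Both occurred together in 3 windows (0.00913%), those of Cxcl1, Cxcl2 and Cxcl3, and in neither orientation did the Cxcr2 window hold either run. Transcripts of Cxcl2 and Cxcl3 also resemble each other, and 86 windows of 90 bases were identical between them (86 of 2239 in Cxcl2 and 86 of 3662 in Cxcl3, with a longest identical run of 157 bases). Reads that lie wholly in that stretch cannot tell Cxcl2 from Cxcl3, and how they were counted was not tested. Cxcl1 and Cxcl5 shared no such window with another ligand (0 of 2042 and 0 of 1950).

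Over all cells, Cxcl2 was counted with 299525 UMIs, Cxcl3 with 10308, Cxcl1 with 3756, Cxcr2 with 585 and Cxcl5 with 34. Cells had been placed in 27 numbered clusters by the study, and these were named from marker genes. Levels are given as CPM, the UMIs of the gene per 1000000 UMIs of all genes in the cells of a cluster or tumor. Because the clusters were made from the same cells, levels by cluster are a description with no test. Clusters 2, 4, 9, 17, 19, 21, 26 and 27 (55702 cells) carried macrophage markers and are called macrophages below. Cluster 5 (12064 cells) also held 8 of 8 macrophage markers but had the immunoglobulin gene Igkc among its leading genes. By the naming rule used here it stayed unnamed, as did clusters 15, 20 and 25. The study counts cluster 5 among its macrophage subclusters. Its Cxcl2 level was 105 CPM with a UMI in 6.74% of cells, and the macrophage values below leave it out.

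Cxcl2, the ligand released early by macrophages and neutrophils, was highest in cluster 16, which carried granulocyte markers. In cluster 16 its level was 18956.5 CPM, and 80.0% of cells had a UMI of it. Over the 7 tumors with at least 20 cells of cluster 16 the level ran from 12735.9 to 39547.6 CPM, with a median of 24018.9, and did not overlap any tumor's value in the cluster that came next. That was macrophage cluster 2, at 1799.75 CPM (762.53 to 3514.02 CPM over 47 tumors, median 1603.81). Clusters 9 and 27 followed at 1436.88 and 1263.93 CPM, and clusters 2, 9 and 27 overlapped over tumors. Cluster 16 held 0.568% of all cells, so it contributed 3.56% of all Cxcl2 UMIs. Macrophages contributed 86.8%, and cluster 2 alone 52.9%. T and NK cells, which are not known as a source, gave 46.1 CPM with a UMI in 2.35% of cells, against 30.8% of macrophages. Of their 1548 UMIs 1154 were in the 535 cells of cluster 12 (449 CPM), where the macrophage list was also detected, cluster 23 (212 cells) lay at 149 CPM with a UMI in 7.55% of cells, and clusters 1, 3, 7, 8, 10, 13 and 24 lay at 3.62 to 20.5 CPM. How much of this was free RNA was not tested.

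The UMIs of Cxcl2 were uneven between cells of the same cluster. In cluster 2 the 10% of cells with the most UMIs held 64.7% of them, in cluster 27 it held 77.4% and in cluster 16 it held 41.2%. The highest count in 1 cell was 265 UMIs. Cell depth differed between clusters, with a median of 3881 UMIs per cell in cluster 2 and 815 in cluster 16, so cells were thinned to 1000 UMIs where shares were compared. Thinned, Cxcl2 was detected in 80.4% of 153 cells of cluster 16, in 36.2% of 18463 cells of cluster 2 and in 1.47% of 9716 T and NK cells.

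Cxcl3, a close relative of Cxcl2, was also highest in cluster 16, at 915.818 CPM (452.239 to 3255.38 CPM over 7 tumors, median 1057.18). The macrophage cluster with the highest level was not cluster 2 but cluster 27, at 185.698 CPM (0 to 1089.34 CPM over 45 tumors, median 55.1). Cluster 2 stood at 56.4 CPM (0 to 248 CPM over 47 tumors, median 27.2) and overlapped cluster 27. The 6 other macrophage clusters stood at 1.63 to 19.2 CPM. In B6 hosts cluster 2 was above cluster 27 (42.7 against 35.9 CPM), and in the other strains cluster 27 was higher. Without the isotype tumor of pool 12, CC001 hosts were at 35.6 CPM in cluster 27 and 35.7 CPM in cluster 2. Of all Cxcl3 UMIs, macrophages gave 88.3%, cluster 2 alone 48.2% and cluster 27 alone 33.5%. In T and NK cells Cxcl3 was at 2.17 CPM.

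Cxcl1, which fibroblasts and macrophages both make, had another order. It was highest in cluster 22 at 60.9 CPM (0 to 203.453 CPM over 9 tumors). Cluster 22 carried fibroblast markers, with the endothelial and macrophage lists also above their limit there. Macrophage cluster 9, at 50.3 CPM (0 to 147.74 CPM over 20 tumors), overlapped it. In cluster 16 Cxcl1 was at 26.7 CPM, from 15 UMIs. All neighbours in the order of Cxcl1 overlapped over tumors. Of the Cxcl1 UMIs, 72.4% came from macrophages, 36.8% from cluster 2, 11.9% from cluster 20 (which no marker list named) and 5.06% from cluster 22. The sort by CD45 set the numbers of immune and other cells, so these shares do not rank the sources in the whole tumor. The 1312 cells of cDC1 (cross-presenting dendritic cells) had none, which allows a level of up to 0.307 CPM.

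Cxcl5, a ligand best known from epithelium, was close to undetected. Its 34 UMIs were in 14 cells of 8 tumors, 15 of them in a single cell, and 26 in cluster 27. A CC036 aPD1 tumor of pool 8 held 17 of them and a CC075 aPD1 tumor of pool 11 held 8. Cluster 16 had none, which allows a level of up to 5.33 CPM.

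Most UMIs of Cxcr2, the receptor, were in cluster 16. Its level there was 629.514 CPM with a UMI in 40.1% of cells (228.447 to 954.726 CPM over 7 tumors, median 796.826). The next clusters, 12 and 14, were at 1.95 and 1.77 CPM, and macrophages at 0.411 CPM. Cluster 16 thus held 354 of 585 Cxcr2 UMIs (60.5%). The related receptor gene Cxcr1 was counted with 9 UMIs in all cells, at 10.7 CPM in cluster 16.

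**Figure D1:**
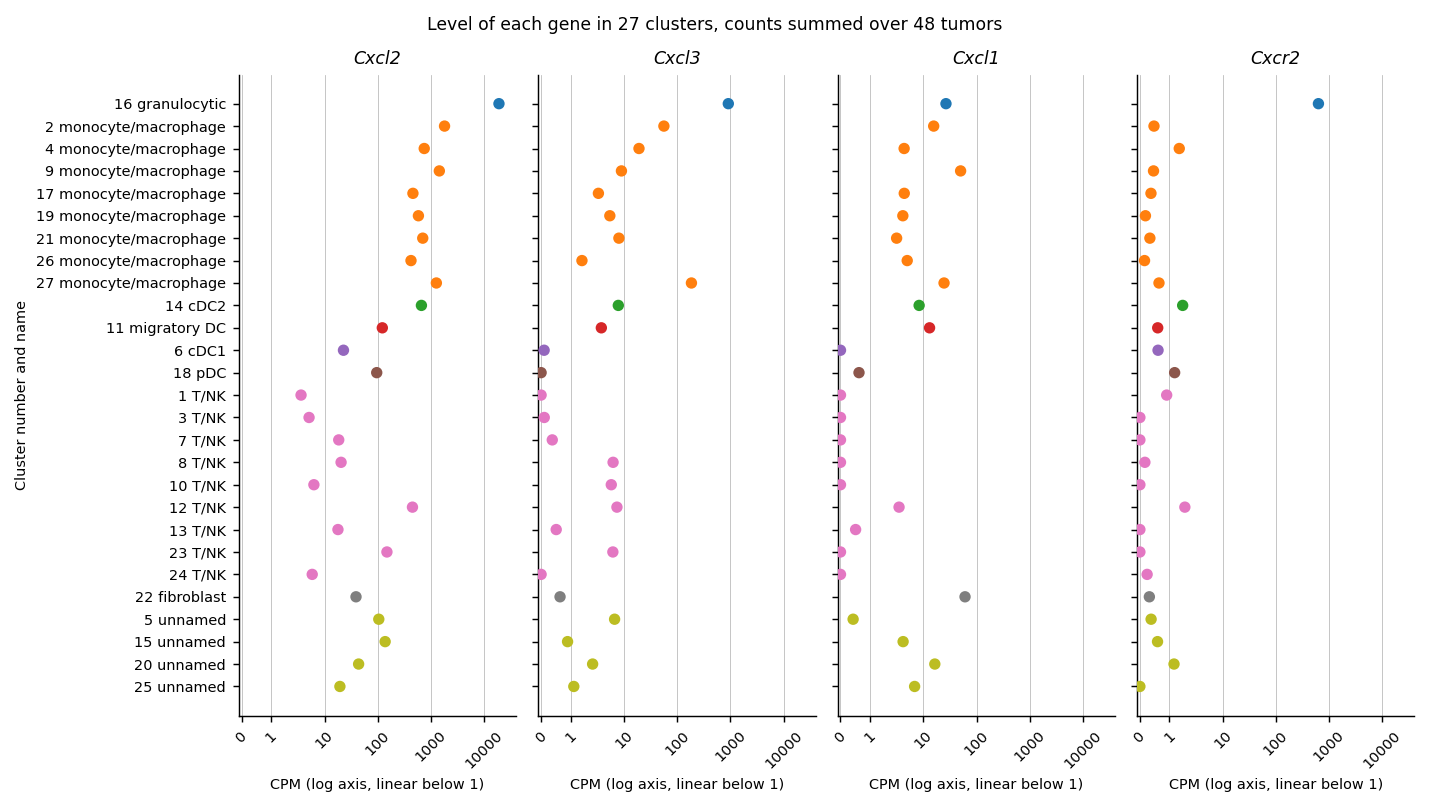
Level of Cxcl2, Cxcl3, Cxcl1 and Cxcr2 (CPM, log axis that is linear below 1) in each of 27 clusters, with counts summed over 48 tumors. Cluster 16 lies highest for Cxcl2 (18956.5 CPM), Cxcl3 (915.818 CPM) and Cxcr2 (629.514 CPM), cluster 27 follows for Cxcl3, and cluster 22 lies highest for Cxcl1.

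The identity of cluster 16 was checked with a list that left Cxcr2 out. Of 9 granulocyte markers 8 were above their limit, with S100a9 at 28813.6 CPM, S100a8 at 25013.4 CPM and Retnlg at 6208 CPM (3.54, 15.5 and 0.192 CPM in macrophages). The neutrophil surface gene Ly6g was at 40.9 CPM. Macrophage markers were also present at lower levels, with Apoe at 533.486 CPM against 4526.87 CPM in macrophages and C1qa at 147.598 against 1965.02 CPM. Of the genes of granules that neutrophils form as they mature, Mmp9 was at 528 CPM, Mmp8 at 114 CPM and Ltf at 23.1 CPM (highest in cluster 25, at 143 CPM). Ngp was at 16.005 CPM and Camp at 3.56 CPM, and Elane and Mpo had no UMI, which allows up to 5.33 CPM. The cluster held 529 cells in 47 tumors, of which 115 came from the CC001 isotype tumor of pool 12.

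In cluster 16, Cxcl2 was detected about as often in cells with a Cxcr2 UMI as in cells without one, and both were detected in 52 of 153 thinned cells. After thinning, Cxcl2 was detected in 81.3% of the 64 cells with a Cxcr2 UMI and in 79.8% of those without one. In macrophages, the ligands tended to be detected in the same cells. In cluster 2, Cxcl2 was detected in 79.3% of 270 cells with a Cxcl3 UMI and in 35.6% of the other cells, and in 87.3% of 126 cells with a Cxcl1 UMI. In cluster 27 the share was 72.1% of 233 cells with a Cxcl3 UMI and 23.2% of the other cells. Cells of 1 tumor are not replicates, and no test was made on these shares.

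Across the 27 clusters, the 5 genes whose log2(CPM + 1) was most like that of Cxcr2 were the neutrophil genes Stfa2l1 (Pearson r 0.970), Stfa1, Retnlg and Retn, and Il1f9, a cytokine gene of the IL-1 family. For Cxcl2 they were Cd300ld (0.937), the inflammasome sensor gene Nlrp3, Hcar2, Cd14 (a co-receptor for lipopolysaccharide) and Ptgs2 (the inducible cyclooxygenase). For Cxcl3 they were Hcar2 (0.861), the oxygen sensor gene Egln3, Smox, Fbxl5 and Ptgs2. Likeness across clusters rests on 27 points, of which cluster 16 is far from the rest for Cxcl2, Cxcl3 and Cxcr2.

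The ligands were next compared between hosts, with counts of all macrophages summed for each tumor. In such sums, fewer cells that make a ligand and less RNA per cell cannot be told apart. Levels of Cxcl3 by host strain are given first. CC002 hosts had the lowest values, at 0, 2.04 and 8.28 CPM (lowest, median and highest of 6 tumors). CC075 hosts had the highest, at 38.7, 113 and 159 CPM in 6 tumors, and the ranges of these strains did not overlap. CC036 tumors lay at 3.75, 44.1 and 76.9 CPM, CC079 tumors at 5.69, 20.1 and 150.0 CPM, CC080 tumors at 1.56, 19.1 and 44.4 CPM and CC001 tumors at 9.44, 14.4 and 133 CPM (8 tumors). B6 tumors lay at 7.12, 13.1 and 54.8 CPM and CC007 tumors at 1.67, 13.4 and 58.3 CPM (4 tumors). Ordered by median, each strain overlapped its neighbours.

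The test across strains (edgeR's quasi-likelihood F test with Benjamini-Hochberg adjustment, 48 tumors, treatment as a term) called Cxcl3 (adjusted p = 0.00204) and neither Cxcl1 (0.210) nor Cxcl2 (0.121). This was 1 of 3 members tested, since Cxcl5 and Cxcr2 fell below the filter on low counts, and 50.7% of all genes tested in macrophages passed this comparison. With the pool as a block the adjusted p for Cxcl3 was 0.0135 and Cxcl1 passed as well (0.00268). Without the CC075 tumors Cxcl3 no longer passed (0.106), and without the CC002 tumors it was at 0.0498. Without the CC001 isotype tumor of pool 12 all 3 passed (Cxcl1 0.0225, Cxcl2 0.0229, Cxcl3 0.000235). Over all settings the genes called in this test ran from 769 to 7038, against 6207 in the fit given first. The change in members called is therefore not read as a result about the members. In all cells together 1 of 4 members passed, again Cxcl3 (0.00545), where 45.6% of genes did.

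In clusters 27 and 2, which gave most Cxcl3 UMIs, CC075 hosts had the highest level, at 685 CPM in cluster 27 (541 to 750 CPM with 1 tumor left out) and 157 CPM in cluster 2 (132 to 182 CPM). No other strain reached these ranges, also with any 1 of its tumors left out. CC002 hosts had the lowest level, at 29.4 and 6.11 CPM, but that rank turned on single tumors. In cluster 2, CC007 hosts stood at 28.4 CPM and at 2.05 CPM without the aPD1 tumor of pool 7, which gave 142 of their 150 UMIs. In cluster 27, B6 hosts stood at 35.9 CPM (24.7 CPM without the aPD1 tumor of pool 6) and CC007 hosts at 36.8 CPM (25.5 CPM without that of pool 7). In cluster 4 the 70.1 CPM of CC079 hosts came mostly from the isotype tumor of pool 1 (155 of 167 UMIs) and was 7.89 CPM without it. Cxcl2 in cluster 2 was at 1495 CPM in CC002 and 2157 CPM in CC075 hosts.

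In macrophages, Cxcl3 amounted to 7.75 UMIs per 100 Cxcl2 UMIs in CC075 hosts (tumors 3.99 to 13.0) and to 0.476 in CC002 hosts (tumors 0 to 0.572). The other strains lay between 1.42 in CC007 and 4.82 in CC001 hosts, and single tumors carried some of these values. Without the aPD1 tumor of pool 7 (158 of 189 UMIs) CC007 hosts were at 0.301, below CC002 hosts. CC001 hosts were at 2.88 without the isotype tumor of pool 12, and CC079 hosts went from 4.05 to 1.54 without the isotype tumor of pool 1. In cluster 16 the ratio ran from 1.84 in CC080 to 8.05 in B6 and 13.1 in CC079 hosts, with CC002 at 3.60 and CC075 at 4.57. In 7 of 8 strains it moved by more than 1.5 times when 1 tumor was left out, among them B6 (4.79 without the aPD1 tumor of pool 7) and CC079 (6.099 without the isotype tumor of pool 1), so no order of strains is read from it. The ratio was followed up after the strain values had been seen and carries no test.

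**Figure D2:**
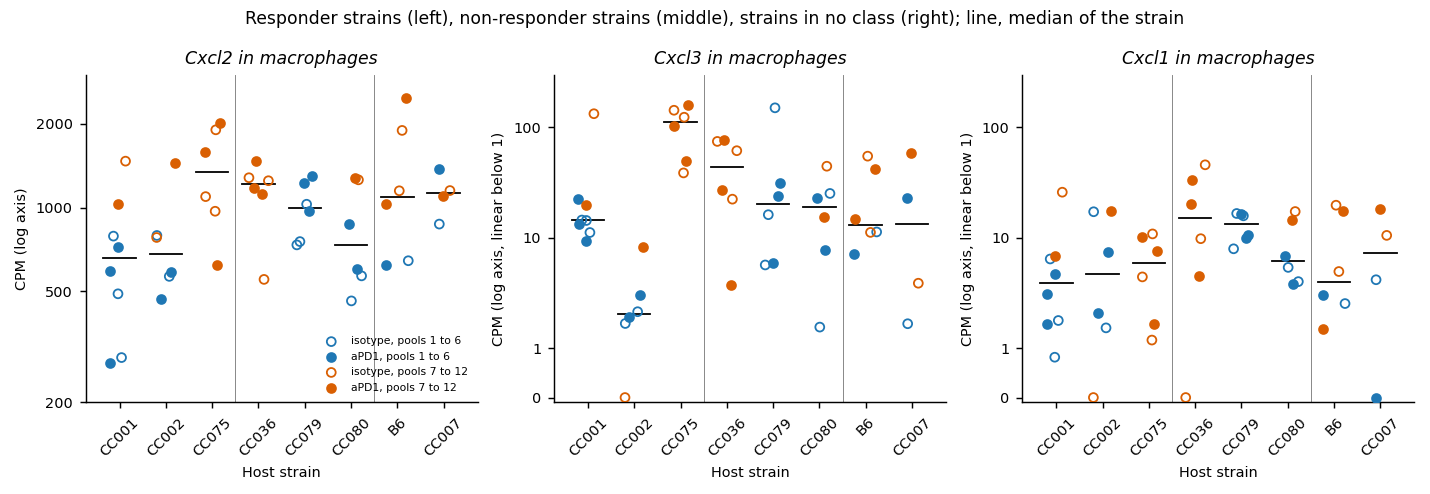
Cxcl2, Cxcl3 and Cxcl1 in macrophages (CPM, log axes) in each tumor by host strain, with open points for isotype, filled points for aPD1, blue for pools 1 to 6, orange for pools 7 to 12 and a line at the strain's median. Cxcl3 was at most 8.28 CPM in CC002 hosts, the lowest strain, and at least 38.7 CPM in CC075 hosts, the highest, while Cxcl2 overlapped between all strains. All CC075 points are from pools 7 to 12.

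**Figure D3:**
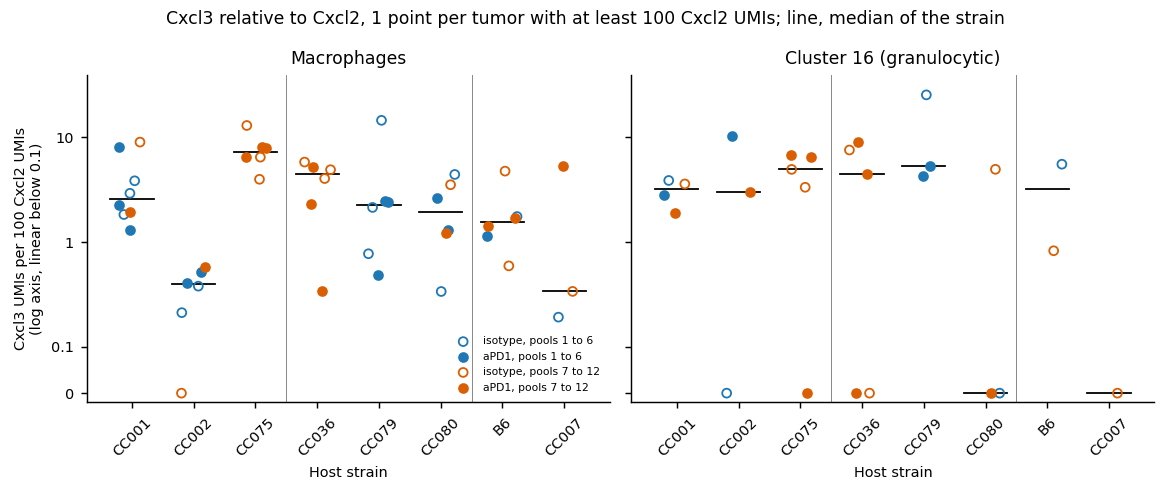
Cxcl3 UMIs per 100 Cxcl2 UMIs (log axis that is linear below 0.1) in each tumor with at least 100 Cxcl2 UMIs, in macrophages and in cluster 16, by host strain with colors for pools, open points for isotype and a line at the median. CC002 tumors lay at 0 to 0.572 in macrophages and reached 10.3 in cluster 16.

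Cxcl2 and Cxcl3 in macrophages were higher in pools 7 to 12 than in pools 1 to 6, and strains were not spread evenly over these pools. CC075 and CC036 tumors were all in pools 7 to 12 and CC079 tumors all in pools 1 to 6. In macrophages Cxcl2 had a median of 682.749 CPM (277.949 to 1376.34) in the 24 tumors of pools 1 to 6 and of 1210.13 CPM (552.549 to 2464.17) in the 24 tumors of pools 7 to 12. With the pool as the unit, since 4 tumors share each, the mean difference in log2(CPM + 1) was 0.85 (6 against 6 pools, exact permutation test over 924 splits, 2-sided, p = 0.00433). Cxcl3 had medians of 11.2 and 43.3 CPM (log2 difference 1.56, exact p = 0.0216) and Cxcl1 of 4.45 and 10.4 CPM (0.67, exact p = 0.104). The split was tested after it had been seen in the values.

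In the 5 strains with tumors on both sides, Cxcl3 had the higher median in pools 7 to 12 in each, but those medians were over 2 tumors in 4 of the strains. The 6 early CC001 tumors lay at 9.44 to 22.4 CPM and the 2 late ones at 19.9 and 133 CPM, the latter the isotype tumor of pool 12. The 4 early CC002 tumors lay at 1.68 to 3.06 CPM and the 2 late ones at 0 and 8.28 CPM. Cxcl2 did so in 4 of them, with 541.5 and 1250.61 CPM in CC001 and 1124.4 and 1123.3 CPM in CC007 hosts. The share of cluster 2 among macrophages moved with the pools, from a median of 28.5% to 40.3%, as did the median UMIs per cell, from 3098.75 to 3517.5, and their part in the difference was not tested. The strain test on pools 1 to 6 alone called Cxcl3 (adjusted p = 0.0358), and on pools 7 to 12 alone it did not (0.227).

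Responder and non-responder hosts were compared to ask whether the ligands went with the class. Tumors of 1 strain share a genotype, so each class rests on 3 strains. In isotype tumors, Cxcl2 in macrophages was at 290, 792 and 1900 CPM (lowest, median, highest) in responders and at 463, 755 and 1279 CPM in non-responders. Cxcl3 was at 0, 14.4 and 143 CPM in responders and at 1.56, 25.2 and 150.0 CPM in non-responders, and Cxcl1 at 0, 3.11 and 25.9 against 0, 9.82 and 45.8 CPM. All 3 overlapped. Cxcl1 was 0.81 lower on the log2 scale in responders (log2 fold change -0.81, SE 0.54, adjusted p = 0.902), Cxcl2 stood at 0.10 (SE 0.30, adjusted p = 1.0) and Cxcl3 at 0.27 (SE 0.75, adjusted p = 1.0). None of the 3 members tested passed, where 0.285% of genes did (33 of 11569).

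In aPD1 tumors, Cxcl2 was at 278, 670 and 2006 CPM in responders and at 601, 1172 and 1472 CPM in non-responders. Cxcl3 was at 1.92, 16.7 and 159 CPM against 3.75, 22.8 and 76.9 CPM, and Cxcl1 at 1.66, 5.77 and 17.4 CPM against 3.79, 10.6 and 33.2 CPM. The log2 fold changes of responders over non-responders were -1.02 for Cxcl1 (SE 0.53, adjusted p = 0.275), -0.19 for Cxcl2 (SE 0.30, adjusted p = 0.779) and 0.74 for Cxcl3 (SE 0.76, adjusted p = 0.635). The Cxcl3 value turned to -0.98 without CC075 hosts, and the Cxcl3 median was lower in responders. Again 0 of 3 members passed, against 5.34% of genes (618 of 11569). Within cluster 2 alone 0 of 3 members passed in isotype tumors, where 0.222% of genes did, and 0 of 3 in aPD1 tumors, where 7.7% did. In all cells 0 of 4 members passed, where 0.222% of genes did in isotype tumors and 2.34% in aPD1 tumors.

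The effect of aPD1 was read in the same fit, which did not pair the tumors. In responders the log2 fold changes of aPD1 over isotype were -0.30 for Cxcl1, 0.06 for Cxcl2 and -0.41 for Cxcl3, and in non-responders -0.10, 0.35 and -0.88, with standard errors of 0.29 to 0.78. Pairs of an isotype and an aPD1 tumor in the same strain and pool went both ways. Cxcl2 was higher with aPD1 in 8 of 9 non-responder pairs, 5 of 10 responder pairs and 2 of 5 pairs of unclassed hosts, and edgeR's test of the difference between the Cxcl2 effects of responders and non-responders did not pass (adjusted p = 0.963). Cxcl3 was higher with aPD1 in 13 of 24 pairs (5 of 9 non-responder, 5 of 10 responder and 3 of 5 unclassed pairs) and Cxcl1 in 11 of 24. Among non-responder pairs the lowest Cxcl3 differences were -119 CPM in CC079 hosts of pool 1 and -57.7 CPM in CC036 hosts of pool 9. No member was called in macrophages, and no gene was (0.0% of 11569 in responders, 0.0% in non-responders, and 0.0% for the difference between these effects, with 704, 97 and 633 genes at an unadjusted p under 0.05). Nor was any called in all cells, at 0.0% in responders, 0.0% in non-responders and 0.0% for the difference (590, 512 and 897 genes at an unadjusted p under 0.05).

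Cxcr2 could be tested in all cells. Its level there was at 0, 1.14 and 10.0 CPM in responder isotype, 0.480, 1.22 and 3.44 CPM in non-responder isotype, 0.108, 1.24 and 5.27 CPM in responder aPD1 and 0.418, 0.766 and 1.39 CPM in non-responder aPD1 tumors. The highest value was that of the CC001 isotype tumor of pool 12, without which the isotype log2 fold change given next for Cxcr2 was -0.36. Responders over non-responders gave a log2 fold change of 0.49 (SE 0.56, adjusted p = 1.0) in isotype and of 0.84 (SE 0.58, adjusted p = 0.519) in aPD1 tumors, and aPD1 over isotype gave -0.56 in responders (0.29 without that tumor) and -0.91 in non-responders. None passed. Within cluster 16, where 16 tumors of classed hosts held at least 10 cells, 3 members were tested between the classes and 0 passed, as did 0.0% of 306 genes (30 at an unadjusted p under 0.05). Cxcr2 had a log2 fold change of 0.72 there (SE 0.36, adjusted p = 0.515).

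Of the 529 cells of cluster 16, 212 had a Cxcr2 UMI, and other clusters held Cxcr2 UMIs too. The share of cluster 16 is therefore a share of granulocytic cells and not a count of cells with the receptor. It was 1.22% of cells in responder isotype tumors (192 of 15734 cells, exact 95% interval 1.05% to 1.40%, with 115 of these cells in the CC001 isotype tumor of pool 12, without which it was 0.557%, 77 of 13818 cells), 0.589% in responder aPD1 tumors (133 cells), 0.485% in non-responder isotype tumors (96 cells) and 0.310% in non-responder aPD1 tumors (55 cells). The interval covers counting error only. Over tumors the share ran from 0.0536% over a median of 0.412% to 6.00% in responder isotype, from 0.0503% over 0.540% to 1.22% in responder aPD1, from 0 over 0.469% to 1.20% in non-responder isotype and from 0.0539% over 0.225% to 0.652% in non-responder aPD1 tumors. The groups overlapped. The difference of means between responders and non-responders was 0.529 percentage points in isotype tumors (exact permutation test, 2-sided, p = 0.557, adjusted over 5 comparisons 0.743) and 0.295 in aPD1 tumors (exact p = 0.0772, adjusted 0.239). The aPD1 difference was 0.188 with the pool as a block (exact p = 0.219), 0.0271 in pools 1 to 6 (exact p = 0.825) and 0.548 in pools 7 to 12 (exact p = 0.0317, adjusted 0.159). The block used only pools that held both classes. This leaves out the CC001 and CC002 tumors of pool 12 and the CC036 tumors of pool 8, so its value rests on fewer tumors. Without the CC001 isotype tumor of pool 12 the isotype difference was -0.0164 percentage points. aPD1 over isotype gave -0.491 percentage points in responders (unpaired permutation p = 0.595), 0.0547 without that tumor and 0.128 as a difference of medians. In non-responders it gave -0.257 (unpaired exact p = 0.0956), and neither passed after adjustment. With tumors paired by pool and strain, exact sign-flip tests gave p = 0.473 in responders and p = 0.121 in non-responders.

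**Figure D4:**
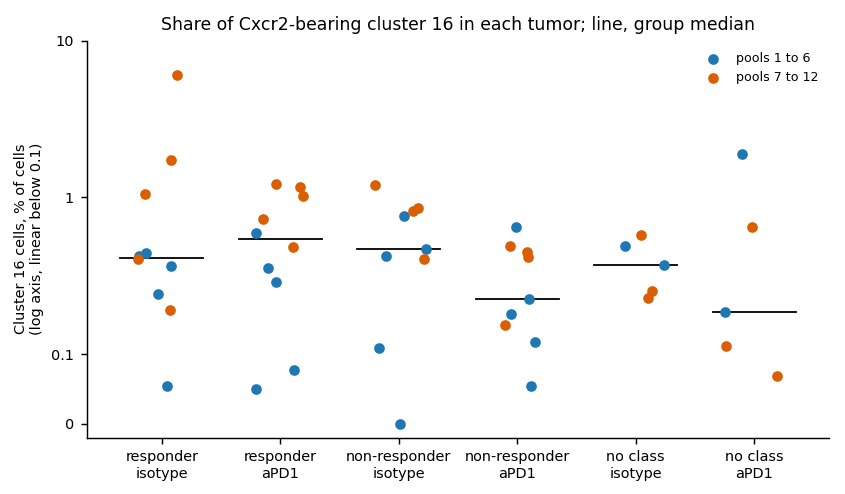
Share of cluster 16 among all cells of each tumor (%, log axis that is linear below 0.1) by class and antibody, with blue points for pools 1 to 6, orange points for pools 7 to 12 and a line at the group's median. A single responder isotype tumor lies at 6.00%, and all groups overlap.

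Ligand levels and the share of cluster 16 were set side by side over the 46 tumors with at least 100 macrophages. Ligand levels came from macrophages only, so no cell of cluster 16 entered them. Macrophages were still among the cells over which the share was taken. The permutation tests took each tumor as independent, though tumors share pools and strains. The share had a median of 0.321% in the 24 tumors of pools 1 to 6 and of 0.535% in the 24 tumors of pools 7 to 12. Relations over all tumors mix this shift between the sets of pools with differences within them. Cxcl3 in macrophages went with the share of cluster 16 (Pearson r 0.431, permutation p = 3e-05, Spearman rho 0.513, p = 0.00031, adjusted 0.00062 over 6 relations). Without the 2 tumors farthest from the median of Cxcl3 the Pearson r was 0.431. Cxcl2 gave an r of 0.301 (p = 0.0464, adjusted 0.0697) and a rho of 0.411 (p = 0.00469, adjusted 0.00703), and an r of 0.315 without the 2 farthest tumors. With cluster 2 in place of macrophages the rho of Cxcl2 was 0.274 (adjusted permutation p 0.0669) and did not pass. Cxcl1 gave an r of 0.256 (p = 0.0787) and a rho of 0.284 (p = 0.0550), with 0.345 without the 2 farthest tumors, and did not pass. With log2(CPM + 10) as the level, Pearson's r passed for Cxcl1 (0.293, permutation p = 0.0411, adjusted 0.0459) and Cxcl2 (0.301, adjusted 0.0459). The rho of Cxcl1 stayed at 0.284 there and did not pass.

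The relations were recomputed within each of the sets pools 1 to 6 and pools 7 to 12, again with each tumor taken as independent. For Cxcl3 and the share, rho was 0.210 in the 23 tumors of pools 1 to 6 (p = 0.334) and 0.534 in the 23 tumors of pools 7 to 12 (p = 0.0100, adjusted 0.0602). In pools 1 to 6 the Pearson r turned from 0.288 to -0.112 without the 2 farthest tumors. For Cxcl2 rho was 0.322 and 0.152 on each side, and neither passed. After adjustment, neither relation with the share passed within either set of pools.

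**Figure D5:**
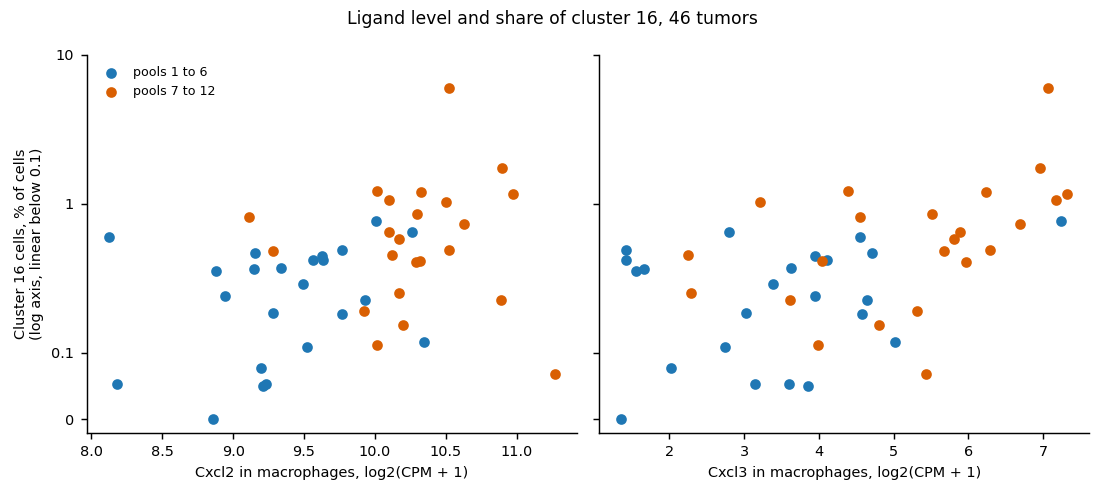
Level of Cxcl2 and Cxcl3 in macrophages (log2(CPM + 1)) against the share of cluster 16 (% of cells, log axis that is linear below 0.1) in 46 tumors, with blue points for pools 1 to 6 and orange points for pools 7 to 12. The plotted tumors have a median of 1248.09 CPM for Cxcl2 in pools 7 to 12 (23 tumors), against 644.594 CPM in pools 1 to 6 (23 tumors).

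The ligands were also set against each other over tumors, again with each tumor taken as independent. Cxcl1 and Cxcl2 had an r of 0.521 (permutation p = 0.00027) and a rho of 0.592 (p = 5e-05, adjusted 0.0003), Cxcl2 and Cxcl3 an r of 0.499 (permutation p = 0.00045) and a rho of 0.533 (adjusted p 0.00062), and Cxcl1 and Cxcl3 an r of 0.271 (permutation p = 0.0682) and a rho of 0.330 (adjusted p 0.0305). The last did not pass without tumors under 500 cells (adjusted p 0.0513), with cluster 2 in place of macrophages (0.0669), without the CC001 isotype tumor of pool 12 (0.0594) or within pools 1 to 6 (0.501) or 7 to 12 (0.579). Without the 2 farthest tumors r was 0.607, 0.567 and 0.334. Within pools 1 to 6, Cxcl1 and Cxcl2 kept a rho of 0.732 (permutation p = 0.00016, adjusted 0.00096), and in pools 7 to 12 it was 0.376 (adjusted 0.229). For Cxcl2 and Cxcl3 rho was 0.275 and 0.329, with no pass on either side.

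Over the same tumors, the gene most like Cxcl3 in macrophages among 11569 genes was Ppbp, the neighbouring ligand gene (Pearson r 0.698), followed by the lipid droplet genes Plin2 and Hilpda, by Sdc1 and by the chemokine gene Ccl9. Ppbp was highest in cluster 27, at 67.2 CPM, and was not counted in cluster 16. By strain its macrophage level ran from a median of 0 CPM in CC007 and 0.260 CPM in CC002 to 20.9 CPM in CC075 hosts (2.08 to 72.1 CPM), and it passed the strain test (adjusted p = 2.28e-05). Cxcl2 was most like the immediate early genes Ier3 (0.756) and Dusp1, and Anxa11, Rgcc and Cd14. Cxcl1 was most like Mrfap1 (0.608), Slc5a6, Arl1, Desi2 and Tmem43. These are descriptions over 46 tumors that share pools and strains.

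The wider pathway was read from a list of 63 genes in 6 parts, of which 47 were tested in macrophages. In aPD1 tumors, responders against non-responders, 2 of 47 were higher and 2 lower in responders, where 5.34% of all genes passed, and the median log2 fold change of the list was 0.07 against -0.02 over all genes tested. Csf3r, the receptor for the granulocyte growth factor G-CSF, was higher in responders (log2 fold change 0.85, adjusted p = 0.0392), at medians of 36.2 and 21.5 CPM. Prex1, a Rac exchange factor downstream of chemoattractant receptors, was higher by 0.36 (adjusted p = 0.00386). Alox5, the lipoxygenase of leukotriene synthesis, was lower (log2 fold change -1.07, adjusted p = 0.0143), at medians of 5.90 and 11.4 CPM, and Il17ra, a receptor chain for IL-17, was lower too (-0.45, adjusted p = 0.0169). These calls take tumors of a strain as replicates. With counts summed per strain, 10 genes in place of 618 passed and none of these 4 did (adjusted p 0.441 for Csf3r, 0.350 for Prex1, 0.388 for Alox5 and 0.373 for Il17ra). By strain, over tumors of both antibodies, the median of Csf3r was 59.6 CPM in CC075, 28.2 CPM in CC002 and 26.2 CPM in CC001 hosts. It was 33.8 CPM in CC036, 26.9 CPM in CC080 and 19.7 CPM in CC079 hosts. In isotype tumors 0 of 47 passed, where 0.285% of all genes did, and for aPD1 against isotype 0 of 47 passed, where 0.0% of all genes did.

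By part, 0 of 2 tested other ligands and decoys, 2 of 11 inducers, 0 of 10 NF-κB and mRNA decay genes, 1 of 11 other attractants and receptors, 1 of 8 signalling genes and 0 of 5 neutrophil contents passed in that comparison. The inducers Il1b and Tnf did not. Il1b in macrophages had medians of 1697 CPM in responder aPD1 and 1236 CPM in non-responder aPD1 tumors, and Tnf of 89.0 and 67.2 CPM. Il17a was not counted in macrophages of any tumor, and Csf3, the gene of G-CSF, had a median of 0 in every group. Between strains 33 of 49 list genes passed, against 50.7% of all genes, among them Nfkbiz (adjusted p = 9.93e-06), a nuclear cofactor of NF-κB, with medians from 149 CPM in CC079 to 309 CPM in CC075 hosts. In cluster 16 the inducer Il1b was at 13338.9 CPM and the decoy receptor gene Il1r2 at 2226.42 CPM.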

How the data were processed

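Libraries were made with 10x Genomics 5′ version 2 chemistry, in which each UMI tags 1 captured transcript, from 12 pools of 4 hashtagged tumors. The authors processed reads with Cell Ranger against GRCm38 (mm10) and cells with Seurat 5.0.1, and deposited a matrix of raw UMI counts for 93126 cells and 27457 genes with the tumor and cluster of each cell. All columns were matched to the labels (0 unmatched). Tumors held 53 to 3082 cells, which limits the precision of low genes, and intervals cover counting error only.

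Counts were summed by tumor over macrophages, all cells, cluster 2 and cluster 16 and tested with edgeR 4.0.16 (quasi-likelihood F test, Benjamini-Hochberg, threshold 0.05) in R 4.3.3, with DESeq2 1.42.0 as an alternative. The code was tested on simulated data. Shares were compared by exact or 100000-fold permutation tests and correlated in SciPy 1.17.1 over tumors with at least 100 macrophages. Clusters were named from marker lists (at least 3 markers detected) and doublets were not called again. Named genes were the members, the 5 genes most like each by Pearson's r, and pathway genes that passed. Those most like Cxcl1 across clusters are not reported here. The members, lists and the split of pools were chosen with earlier results of these data known.

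A pool is a shared library that holds an isotype and an aPD1 tumor of each of its 2 strains, so tumors of a pool were paired, and a fit with the pool as a replicate block was an alternative. Other alternatives changed the size factors, the filter on low counts, the pseudocount, or the tumors entered. Those that kept pools 1 to 6 or 7 to 12, left out the CC001 isotype tumor of pool 12 or, in the strain test, a strain, or added clusters 5 and 15, were chosen after the data had been seen. An identifier of 1 animal stood on 2 tumors, and a fit without them was an alternative.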

Additional observations from a re-analysis of the deposited data

Results flagged for a closer look

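In 11 of 48 checks, each of 1 measure in 1 group of 4 to 10 tumors, a tumor stood apart from the rest by Dixon's gap test. The measures were Cxcl1, Cxcl2 and Cxcl3 in macrophages and the share of cluster 16. Chance gives this in about 1 of 20 checks where checks are independent and values normally distributed. Here a tumor could count in the group of its class and in that of its strain, and all measures came from the same tumors. The rate chance gives for these values was not measured. The CC001 isotype tumor of pool 12 was apart in its share of cluster 16 (6.00% of cells), next to 1.73% among responder isotype tumors and 1.22% among CC001 tumors. It was also apart among CC001 tumors for Cxcl1 in macrophages (25.9 CPM, next 6.82 CPM) and Cxcl3 (133 CPM, next 22.4 CPM). The CC002 aPD1 tumor of pool 12 was apart among CC002 tumors for Cxcl2 (1446.68 CPM, next 794.171 CPM), Cxcl3 (8.28 CPM, next 3.06 CPM) and the share of cluster 16 (1.03%, next 0.420%). Cxcl3 stood apart in the CC079 isotype tumor of pool 1 (149.969 CPM), next to 74.5 CPM among non-responder isotype tumors and 31.3 CPM among CC079 tumors. Cxcl3 in the CC036 aPD1 tumor of pool 8 was 76.9 CPM (next 31.3 CPM among non-responder aPD1 tumors), and Cxcl1 in the CC036 isotype tumor of pool 9 was 45.8 CPM (next 17.3 CPM among non-responder isotype tumors).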

How the results depend on the processing

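Cxcl3 passed the strain test in macrophages under DESeq2 (adjusted p = 6.75e-05) and all other settings but those without CC075 hosts (0.106) or with pools 7 to 12 alone (0.227). The count of members that passed, 1 in the report, was 2 without the filter on low counts, with the pool as a replicate block, with early or late pools as a term and in pools 1 to 6, 3 without the CC001 isotype tumor of pool 12, 0 in pools 7 to 12, and 0 to 1 when each strain was left out. Without the filter, the member added in macrophages was Cxcl5 (edgeR's F test, adjusted p = 0.00494). Cxcl5 had 34 UMIs in all cells, 17 of them in 1 tumor. In all cells the count of members that passed was 2 without the filter and with the replicate block, and 0 in pools 1 to 6 and in pools 7 to 12. Over all settings the genes called between strains ran from 769 to 7038 in macrophages and from 490 to 7877 in all cells. No change in the count of members is read apart from these ranges.

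No member passed a comparison of class or treatment, and several log2 fold changes turned sign. With the replicate block, responders over non-responders in isotype tumors gave -0.0339 for Cxcl2 and -0.0261 for Cxcr2. With early or late pools as a term they gave -0.0199 for Cxcl2 and -0.54 for Cxcl3. In pools 1 to 6 they were -0.25 for Cxcl2, -2.13 for Cxcl3 and -0.28 for Cxcr2 in isotype tumors and -0.76 for Cxcl3 and -0.25 for Cxcr2 in aPD1 tumors, and aPD1 over isotype in responders was -0.10 for Cxcl2 and 0.27 for Cxcl3. In pools 7 to 12, Cxcl2 in aPD1 tumors was 0.18. Without the CC001 isotype tumor of pool 12 the isotype values were -0.00561 for Cxcl2, -0.0283 for Cxcl3 and -0.36 for Cxcr2, and aPD1 over isotype in responders was 0.24 for Cxcl1 and 0.29 for Cxcr2. When each strain was left out, responders over non-responders in isotype tumors ran from -0.20 (without CC075) to 0.26 for Cxcl2, from -0.52 (without CC075) to 0.70 for Cxcl3, which was -0.0122 without CC080, and from -0.22 (without CC001) to 0.94 for Cxcr2. In aPD1 tumors Cxcl2 reached 0.0828 (without CC001) and Cxcl3 ran from -0.98 (without CC075) to 1.23. Over all settings Cxcl2 in aPD1 tumors ran from -0.85 to 0.18. aPD1 over isotype in responders ran from -0.64 to 0.19 (without CC001) for Cxcl1, from -0.00404 (without CC002) to 0.17 for Cxcl2 and from -1.10 to 0.29 (without CC001) for Cxcr2.

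For the share of cluster 16, differences of medians were -0.0570 percentage points between the classes in isotype tumors, 0.128 for aPD1 in responders and 0.313 for the difference of effects. The last was 0.106 with the replicate block (only pools that held both classes), 0.0755 in pools 1 to 6 and from -0.484 to 0.203 (without CC001) when each strain was left out. Without the CC001 isotype tumor of pool 12 the 3 values were -0.0164, 0.0547 and 0.243, and the first was -0.0485 in pools 1 to 6. Spearman's rho of Cxcl2 and the share was 0.274 with cluster 2 in place of macrophages, 0.322 in pools 1 to 6 and 0.152 in pools 7 to 12, none of which passed. For Cxcl3 and the share it was 0.210 and 0.534 in these pools, for Cxcl2 and Cxcl3 0.275 and 0.329, and in pools 7 to 12 it was -0.00889 for Cxcl1 and the share and 0.376 for Cxcl1 and Cxcl2. For Cxcl1 and Cxcl3 it was 0.303 without tumors under 500 cells, 0.277 with cluster 2, 0.146 and 0.190 in the pools and 0.294 without the CC001 isotype tumor of pool 12. The median of Cxcl5 over tumors was 0 in macrophages and in all cells, so it named no highest cluster. Genes that passed between the classes in aPD1 macrophages, 618 in the report, ran from 10 to 1101 over the settings, and between strains, 6207 in the report, from 769 to 7038. The cause of these changes was not tested. Cxcl5 and Cxcr2 were sparse, and in macrophages they were tested only without the filter on low counts.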
